A study of Mus musculus with 16 samples.

Results

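Matrix metalloproteases (MMPs), their tissue inhibitors (TIMPs), the ADAMTS proteases and the ADAMTS-like proteins were examined in sorted mouse bone endothelial cells. The 51 genes were taken by symbol, as all names made of Mmp, Timp, Adamts or Adamtsl and a number, and comprised 23 Mmp, 4 Timp, 19 Adamts and 5 Adamtsl genes. All 51 were among the 38926 genes of the mpEC and bmEC table and of the Lats2 table, and 50 were among the 21603 genes of the Yap1/Taz lists, which do not hold Mmp1a. The values are FPKM (fragments per kilobase of transcript, scaled to the size of the library), so levels can be compared between genes, but the 3 comparisons were normalised separately and their levels are not set against each other by any test.

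The study compared endothelial cells (ECs) from different parts of the bone, and mutant ECs with those of littermates. On a C57BL/6 background, 3 mpEC libraries came from the metaphysis and 3 bmEC libraries from the diaphyseal marrow of wildtype 3-week-old mice with a Cdh5-driven reporter, by which ECs were sorted. At postnatal day 21, 3 control libraries came from Yap1flx/flx and Wwtr1flx/flx mice without Cdh5CreERT2, and 3 libraries labelled ECKO from mice with the same floxed alleles that carried Cdh5CreERT2. A further 2 control libraries came from 3-week-old Lats2flx/flx mice without Cdh5CreERT2 and 2 cKO libraries from Lats2flx/flx mice with it. Cdh5CreERT2 is a tamoxifen-inducible recombinase driven by the promoter of the endothelial cadherin Cdh5, so controls carry the floxed alleles but no recombinase. Tamoxifen was given after birth, and for Yap1/Taz mutants examined at postnatal day 21 this was around the end of the first week. Animals were combined irrespective of sex, although the methods also name male mice for the analysis of wild-type bone. Whether that covers the reporter mice is not stated. The sorting protocol stained CD31 (Pecam1) and Emcn. The methods call replicates biological, but the labels do not tie them to separate animals, so p-values may measure only the spread between these libraries.

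MMPs are zinc proteases that cut collagens and other matrix proteins, and are made as proenzymes. Some are secreted and some are anchored in the cell membrane. In growing bone, matrix cleavage opens the way for vessels that invade the cartilage of the growth plate. TIMPs bind and block the active site of MMPs, and Timp3, which itself binds to matrix, also inhibits ADAMTS proteases. ADAMTS proteases are secreted enzymes whose members cut large proteoglycans such as versican and aggrecan, procollagens or von Willebrand factor, and ADAMTS-like proteins resemble them but lack the protease domain.

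The libraries held between 4732613 and 14756068 reads, as recovered from the steps of the low FPKM values, and the mpEC and bmEC libraries were the deepest. The 10 endothelial markers examined (among them Cdh5, Pecam1 and Emcn) were detected in every comparison, with summed levels of 1629 to 2145 FPKM in the mpEC and bmEC libraries, 613 to 918 FPKM in the Yap1/Taz libraries and 2423 to 2918 FPKM in the Lats2 libraries. Genes of blood cells were present as well: the 10 neutrophil markers summed to 9501 to 27958 FPKM and the 6 erythroid markers to 25709 to 55636 FPKM over the mpEC and bmEC libraries. In such bulk values, fewer cells of a type and less RNA per cell cannot be told apart. The study itself reported lower Yap1 and Wwtr1 transcripts by quantitative PCR in isolated Yap1/Taz mutant bone ECs, with weaker Yap1 staining. It also reported lower Lats2 transcripts in isolated Lats2 mutant bone ECs. In the FPKM values, the targeted genes did not fall as the Yap1/Taz labels state. Wwtr1, which encodes Taz, was at 10.01, 9.88 and 10.3 FPKM in the control libraries and 15.3, 19.6 and 19.5 FPKM in the libraries labelled ECKO (log2 fold change of 0.78 with an SE of 0.12 and an adjusted p of 0.0272), so the groups did not overlap and the mutant label held the higher level. The Wwtr1 call (limma) was lost without control 2, control 3, ECKO 2 or ECKO 3 (adjusted p 0.0715 to 0.180). It was also lost with no filter (0.0679) or no trend (0.0570). Yap1 was at 1.07, 1.62 and 0.995 FPKM in the control libraries and 1.43, 1.03 and 0.989 FPKM in the libraries labelled ECKO (log2 fold change of -0.04 with an SE of 0.18 and an adjusted p of 0.934). Lats2 was at 23.4 and 24.0 FPKM in the control libraries and 19.2 and 19.2 FPKM in the cKO libraries (log2 fold change of -0.29 with an SE of 0.11 and an adjusted p of 0.125), lower in both cKO libraries without passing the test. These values cover each gene whole, including exons that a deletion may leave in the transcript, and the exons flanked by loxP are not given in the sources used here. The Yap1/Taz mutants are therefore called libraries labelled ECKO.

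To describe how the proteases and inhibitors differ between regions, bmECs were compared with mpECs. The most abundant member in bmECs was Adamts5, at 4.26 times its mean FPKM in mpECs, and Timp3 and Adamts1 were also higher in bmECs. Every Mmp gene that passed the test was lower in bmECs, with the collagenase Mmp13 and the gelatinase Mmp2 close to the limit of the filter there, and Timp1 and Timp2 were lower too. Of 16 members with a mean of at least 1 FPKM, 10 were called at an adjusted p under 0.05, of which 3 were higher and 7 were lower in bmECs. Among all 11422 genes tested, 23.5% were called, 13.0% as higher and 10.5% as lower. The groups did not overlap for 12 of the 16 members, against 41.3% of all genes tested. Fold changes are on the log2(FPKM + 1) scale, as bmEC minus mpEC. The median log2 fold change of the 16 was -0.52, with -0.00068 over all genes tested. Mmp2 and Mmp25 reached the filter through the mpEC libraries alone, since their bmEC means were under 1 FPKM.

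**Figure D1:**
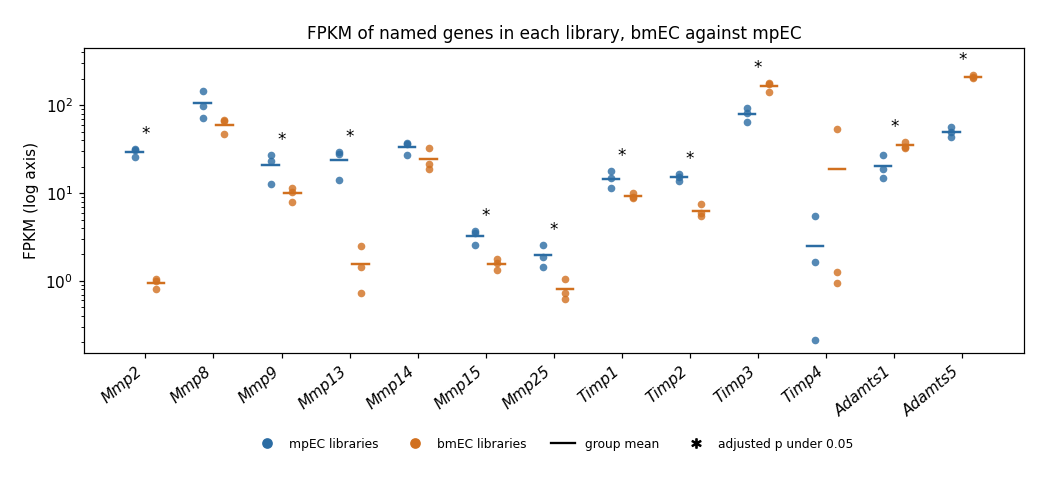
FPKM on a log axis of 13 genes (italic, horizontal axis) in each of the 3 mpEC (blue) and 3 bmEC (orange) libraries. Points are libraries, bars are group means and asterisks mark an adjusted p under 0.05 (limma). Adamts5 lies at 207, 204 and 223 FPKM in bmECs, above all mpEC points, Mmp2 and Mmp13 lie far lower in bmECs, and Timp4 has 1 bmEC library at 53.9 FPKM.

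The gelatinases cut denatured collagen and collagen of basement membranes. Mmp2 was at 25.5, 31.5 and 30.5 FPKM in the mpEC libraries and 1.04, 1.01 and 0.811 FPKM in the bmEC libraries, and its recovered reads ranged from 29 to 1062 per library. The mpEC libraries were thus all high and alike, and every bmEC library was far lower (29.2 ± 3.24 against 0.953 ± 0.124, SD, n = 3 each; log2 fold change of -3.95 with an SE of 0.12 and an adjusted p of 2.58e-06). Mmp9, which osteoclasts and neutrophils are also known to make, was at 26.8, 12.8 and 22.9 FPKM in the mpEC libraries and 11.4, 7.95 and 10.3 FPKM in the bmEC libraries. The highest bmEC value lay just under the lowest mpEC value (log2 fold change of -0.96 with an SE of 0.25 and an adjusted p of 0.0290), and the call was lost without mpEC 1, mpEC 3, bmEC 2 or bmEC 3 (adjusted p 0.0666 to 0.0980).

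The collagenases cut fibrillar collagen. Mmp13, which hypertrophic chondrocytes and osteoblasts are known to make, was at 27.7, 13.9 and 29.4 FPKM in the mpEC libraries and 1.45, 2.49 and 0.731 FPKM in the bmEC libraries. Its levels spread widely within each group, but the groups lay far apart (23.7 ± 8.49 against 1.56 ± 0.884 FPKM, SD, n = 3 each; log2 fold change of -3.26 with an SE of 0.33 and an adjusted p of 0.00037). Mmp8, the collagenase of neutrophils, was the most abundant Mmp gene in mpECs, at 147, 71.1 and 97.6 FPKM in the mpEC libraries and 65.7, 67.9 and 46.7 FPKM in the bmEC libraries. All 3 mpEC values were above all bmEC values, yet the difference did not pass the test (log2 fold change of -0.75 with an SE of 0.26 and an adjusted p of 0.0687). It passed in 4 of 17 alternative fits, among them the one without mpEC 2. Mmp1a and Mmp1b, the mouse genes most like human interstitial collagenase, were at 0 in all 6 libraries.

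Marker sums of osteoblasts, chondrocytes and osteoclasts were lower in bmECs too, in a fit where 10.5% of all genes were called as lower. The 10 osteoblast markers summed to 248 to 951 FPKM in mpECs and to 44.8 to 59.8 FPKM in bmECs, and 5 of the 7 tested were lower in bmECs. The 10 chondrocyte markers summed to 31.6 to 35.7 FPKM in mpECs and 0.141 to 0.378 FPKM in bmECs, with all 6 tested lower. For the 7 osteoclast markers the sums were 29.6 to 50.8 FPKM and 12.7 to 17.7 FPKM, with both tested markers lower and Calcr at 0 in every library. The 10 neutrophil markers summed to 11703 to 27958 FPKM in mpECs and 9501 to 13979 FPKM in bmECs, with none of 10 called (limma). Other lists were mixed. The 11 stromal and pericyte markers summed to 110 to 145 FPKM in mpECs and 57.5 to 122 FPKM in bmECs, with 2 of 8 tested called as higher and 2 as lower. Of the 10 endothelial markers, 4 were called as higher and 3 as lower in bmECs. The part of bone, stromal and blood cells in the Mmp2, Mmp8, Mmp9 and Mmp13 values was not tested.

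Mmp13 and Mmp8 belong to a run of 10 Mmp genes on chromosome 9 of GRCm38 (chr9:7272514-7699585; Mmp13, Mmp12, Mmp1b, Mmp3, Mmp1a, Mmp10, Mmp8, Mmp27, Mmp20 and Mmp7, in genome order). In the mpEC and bmEC libraries the 8 other genes of the run were at or below 0.213 FPKM. The promoters of Mmp13 and Mmp8 (250 bases before to 50 after the start, from RefSeq, GRCm38.p6, 5′ to 3′) are shown because these were the genes of the run that passed the filter in these libraries. Capitals mark matches, on either strand, to the AP-1 word TGANTCA and the RUNX word TGTGGT.
Mmp13 (chr9:7272264-7272563, plus strand): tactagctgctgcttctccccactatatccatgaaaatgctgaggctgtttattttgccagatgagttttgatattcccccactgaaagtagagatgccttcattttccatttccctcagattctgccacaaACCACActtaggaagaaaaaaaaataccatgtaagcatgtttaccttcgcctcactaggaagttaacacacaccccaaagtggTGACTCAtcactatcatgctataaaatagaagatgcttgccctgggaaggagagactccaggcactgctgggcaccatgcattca
Mmp8 (chr9:7558179-7558478, plus strand): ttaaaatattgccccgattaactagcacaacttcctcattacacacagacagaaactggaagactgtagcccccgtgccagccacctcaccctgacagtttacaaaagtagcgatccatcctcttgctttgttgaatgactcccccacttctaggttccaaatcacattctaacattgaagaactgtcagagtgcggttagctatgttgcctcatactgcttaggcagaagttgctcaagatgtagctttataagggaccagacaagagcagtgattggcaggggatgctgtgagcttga

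Such a match is a description of letters and not a site in use. Mmp13 holds the AP-1 word at position -35 from the start and the RUNX word, as its reverse complement, at position -118, while Mmp8 holds neither. Over all 32851 promoters of this length, 7.81% hold the AP-1 word and 16.8% the RUNX word. Of the 36 members with an entry (39 promoters), 8 hold the AP-1 word, namely Mmp1a, Mmp1b, Mmp3, Mmp7, Mmp10, Mmp12, Mmp13 and Mmp20, and all of them lie in the run on chromosome 9. The TEAD word GGAATG, searched on both strands because Yap1 and Taz bind DNA through TEAD factors, was present in the promoters of Adamts13 and Timp1 and in 14.7% of all promoters. The members with no entry were Adamts4, Adamts5, Adamts6, Adamts7, Adamts8, Adamts10, Adamts15, Adamts16, Adamts19, Adamtsl1, Mmp2, Mmp9, Mmp16, Mmp17 and Mmp19.

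The membrane-anchored MMPs act at the cell surface, and Mmp14 activates the Mmp2 proenzyme there together with Timp2. Mmp14 was at 27.4, 36.0 and 37.2 FPKM in the mpEC libraries and 21.7, 18.7 and 32.7 FPKM in the bmEC libraries, so that bmEC replicate 3 lay within the mpEC range, and the difference did not pass the test (log2 fold change of -0.47 with an SE of 0.20 and an adjusted p of 0.139). Mmp15, a relative of Mmp14 found in many tissues, was lower in every bmEC library, at 2.55, 3.67 and 3.48 FPKM in the mpEC libraries and 1.79, 1.58 and 1.35 FPKM in the bmEC libraries (log2 fold change of -0.71 with an SE of 0.15 and an adjusted p of 0.0110). Mmp25, which leukocytes are known to make, was at 1.44, 1.87 and 2.53 FPKM in the mpEC libraries and 0.721, 0.627 and 1.06 FPKM in the bmEC libraries (log2 fold change of -0.70 with an SE of 0.18 and an adjusted p of 0.0253), and its call was lost without mpEC 2, mpEC 3, bmEC 1 or bmEC 2 (adjusted p 0.0637 to 0.0880).

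The 4 TIMPs did not move together. Timp3, the matrix-bound inhibitor, was at 64.9, 91.8 and 82.1 FPKM in the mpEC libraries and 142, 177 and 176 FPKM in the bmEC libraries. Every bmEC library was above every mpEC library (165 ± 20.4 against 79.6 ± 13.6 FPKM, SD, n = 3 each; log2 fold change of 1.05 with an SE of 0.15 and an adjusted p of 0.00173). Timp2 went the other way, at 13.8, 16.3 and 15.4 FPKM in the mpEC libraries and 7.58, 5.45 and 5.95 FPKM in the bmEC libraries (log2 fold change of -1.15 with an SE of 0.13 and an adjusted p of 0.000641). Timp1, a secreted inhibitor that many cells induce, was at 17.7, 11.4 and 14.7 FPKM in the mpEC libraries and 10.1, 9.05 and 8.90 FPKM in the bmEC libraries. It was lower in bmECs (log2 fold change of -0.57 with an SE of 0.15 and an adjusted p of 0.0284), but the call was lost without mpEC 1, mpEC 3, bmEC 1, bmEC 2 or bmEC 3 (adjusted p 0.0523 to 0.0877). Timp4 depended on 1 library: it was at 1.66, 0.212 and 5.53 FPKM in the mpEC libraries and 0.944, 53.9 and 1.26 FPKM in the bmEC libraries, and bmEC replicate 2 stood apart from all others. The fit with that library gave 1.17 on the log2 scale (SE 1.23, adjusted p = 0.535) and the fit without it -0.40, and neither passed the test.

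Timp3 made up 66.2 to 76.7% of the summed TIMP FPKM in mpECs and 72.2 to 91.6% in bmECs, where replicate 2, with its Timp4, gave the lowest share. The TIMP sum divided by the MMP sum was 0.374, 0.687 and 0.519 in the mpEC libraries and 1.51, 2.41 and 2.00 in the bmEC libraries, which do not overlap. Mmp8, the collagenase of neutrophils, was the largest part of the MMP sum in each of these libraries. It gave 147, 71.1 and 97.6 of 262, 174 and 227 FPKM in mpECs, and 65.7, 67.9 and 46.7 of 106, 102 and 96.1 FPKM in bmECs. The part of neutrophils in this ratio was not tested. Timp3, Timp1 and Adamts5 were each called in opposite directions here and in the Lats2 libraries. Adamts5 had no promoter entry, and the promoter of Timp1, which holds the TEAD word, is not printed. The promoter of Timp3, shown here, is GC-rich (67.0% of its 300 bases, against 43.7% in Mmp13). It holds none of the AP-1, RUNX and TEAD words, so no letter is in capitals.
Timp3 (chr10:86300162-86300461, plus strand): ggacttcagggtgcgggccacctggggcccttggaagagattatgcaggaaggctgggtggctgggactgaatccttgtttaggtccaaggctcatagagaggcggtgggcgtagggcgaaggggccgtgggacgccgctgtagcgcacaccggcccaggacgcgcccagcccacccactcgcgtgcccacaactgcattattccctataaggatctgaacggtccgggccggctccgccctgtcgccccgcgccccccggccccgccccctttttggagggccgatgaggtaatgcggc

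Of Timp3's exon bases, 21.3% overlap Syn3 on the other strand, and whether the counting used strand is not stated, so reads from the pair cannot be told apart in that stretch.

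Among the proteoglycanases, which cut versican and aggrecan, Adamts5 was at 43.5, 49.2 and 56.4 FPKM in the mpEC libraries and 207, 204 and 223 FPKM in the bmEC libraries. The 2 groups were tight and far apart (49.7 ± 6.47 against 212 ± 10.4 FPKM, SD, n = 3 each; log2 fold change of 2.07 with an SE of 0.11 and an adjusted p of 2.48e-05), and the call held in all 17 alternative fits. Adamts5 made up 58.1 to 63.9% of the summed ADAMTS FPKM in mpECs and 81.2 to 83.5% in bmECs. Its neighbour Adamts1, 53059 bases away on the same strand of chromosome 16 (chr16:85793827-85803113 and chr16:85856173-85901828), was at 14.8, 19.0 and 27.0 FPKM in the mpEC libraries and 38.2, 32.8 and 33.5 FPKM in the bmEC libraries. It was higher in bmECs (log2 fold change of 0.79 with an SE of 0.19 and an adjusted p of 0.0209), and lost the call without mpEC 2, bmEC 1 or bmEC 3 (adjusted p 0.0517 to 0.0697). Adamts4, the third proteoglycanase tested, averaged 5.87 ± 1.21 FPKM in mpECs and in bmECs 4.31 ± 0.565 FPKM (log2 fold change of -0.36 with an SE of 0.16 and an adjusted p of 0.139). Adamts7, which cuts cartilage oligomeric matrix protein, had means of 1.28 and 1.25 FPKM, and Adamts10, which binds fibrillin, 1.71 and 1.14 FPKM, with no call for either. With no filter on low values the calls of Adamts1, Mmp9, Mmp25 and Timp1 were also lost. No Adamtsl gene reached the filter, and the highest value among the 5 was 2.09 FPKM (Adamtsl2, in an mpEC library).

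Genes known to act with these proteases were described by a list of 41, of which 27 were tested here. Of these, 4 were called as higher and 13 as lower in bmECs, against 13.0% and 10.5% of all genes. Plat, the tissue plasminogen activator, which makes plasmin, an activator of MMP proenzymes, was at 46.1, 49.8 and 63.1 FPKM in the mpEC libraries and 3.98, 5.81 and 4.23 FPKM in the bmEC libraries (log2 fold change of -3.25 with an SE of 0.16 and an adjusted p of 2e-05). Plaur, the urokinase receptor, was also lower in bmECs, with means of 106 ± 24.6 and 62.9 ± 13.4 FPKM (log2 fold change of -0.73 with an SE of 0.20 and an adjusted p of 0.0334). Tfpi2, a matrix-bound inhibitor of serine proteases, fell from 53.5 ± 13.5 to 30.0 ± 4.56 FPKM (log2 fold change of -0.79 with an SE of 0.20 and an adjusted p of 0.0233). Of 7 ADAM sheddases tested, which release membrane proteins, Adam9 was higher in bmECs (27.6 ± 4.48 and 51.2 ± 3.69 FPKM; log2 fold change of 0.88 with an SE of 0.12 and an adjusted p of 0.00194) and 4 were lower, among them Adam15 (15.3 ± 2.53 and 7.62 ± 0.738 FPKM; log2 fold change of -0.91 with an SE of 0.13 and an adjusted p of 0.00225). Of the 7 substrates and partners of ADAMTS genes tested, the basement membrane protein Nid1 and the proteoglycan Bgn were higher in bmECs. Nid1 had means of 76.7 ± 8.46 and 109 ± 4.45 FPKM (log2 fold change of 0.51 with an SE of 0.10 and an adjusted p of 0.00778) and Bgn 57.1 ± 9.61 and 86.2 ± 7.10 FPKM (log2 fold change of 0.60 with an SE of 0.13 and an adjusted p of 0.0117). The 4 that were lower were Comp, Hapln1, Thbs1 and Thbs2, of which Comp and Hapln1 are also in the chondrocyte list. The calls of Plaur, Tfpi2, Thbs1 and Thbs2 were each lost in fits without 1 library, with adjusted p values of up to 0.111, 0.0840, 0.0742 and 0.0693. The libraries concerned were mpEC 1, mpEC 3, bmEC 2 and bmEC 3 for Plaur, mpEC 2, mpEC 3, bmEC 1 and bmEC 3 for Tfpi2, mpEC 1, mpEC 3 and bmEC 2 for Thbs1 and mpEC 2, mpEC 3, bmEC 1 and bmEC 2 for Thbs2.

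The libraries labelled ECKO were compared with their controls to describe the family when Yap1 and Taz were targeted. Mmp15 was higher and Timp4 lower, and these 2 were the only members called by limma out of 24 tested. Adamts1, Mmp2, Adamts9 and Adamts5 had higher means with groups that did not overlap but did not pass the test. Of all 11320 genes tested, 1.31% were called, 0.883% as higher and 0.424% as lower in libraries labelled ECKO. The groups did not overlap for 10 of the 24 members, against 23.6% of all genes tested. A positive fold change was seen for 19 of the 24, with a median log2 fold change of 0.25, and -0.0047 over all genes tested.

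**Figure D2:**
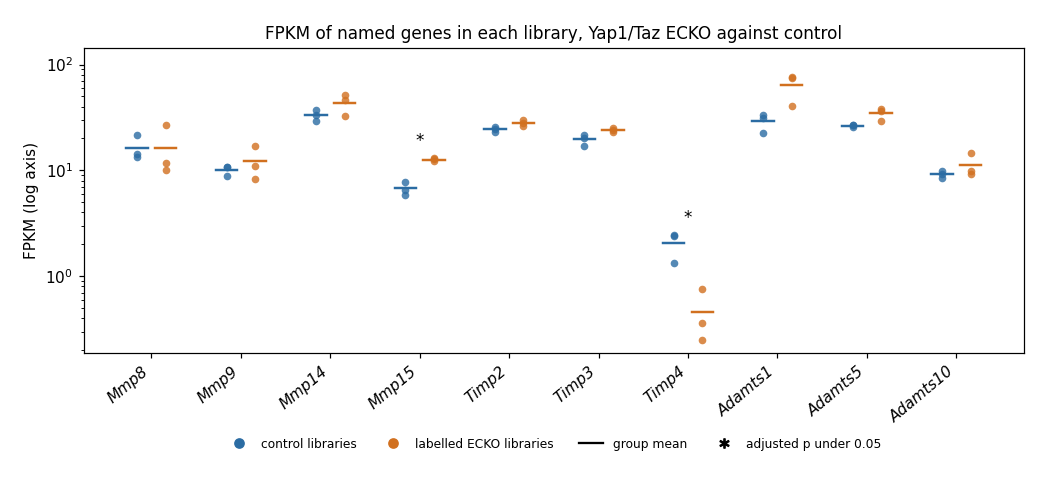
FPKM on a log axis of 10 genes in each of the 3 control libraries (blue) and the 3 libraries labelled ECKO (orange). Points are libraries, bars are group means and asterisks mark an adjusted p under 0.05 (limma). For Adamts1, replicate 1 of the libraries labelled ECKO lies at 40.9 FPKM, nearer to the controls than replicates 2 and 3 at 73.8 and 76.2 FPKM.

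Mmp15 was at 5.91, 7.75 and 6.58 FPKM in the control libraries and 12.7, 12.2 and 13.0 FPKM in the libraries labelled ECKO. The libraries labelled ECKO were alike and all above the controls (12.6 ± 0.444 against 6.75 ± 0.932 FPKM, SD, n = 3 each; log2 fold change of 0.82 with an SE of 0.12 and an adjusted p of 0.0235), and the call was lost without control 3, ECKO 2 or ECKO 3 (adjusted p 0.0715 to 0.144), and also with no filter or no trend. Its promoter is shown because it was the only member called as higher here. It holds none of the 3 words searched.
Mmp15 (chr8:95352046-95352345, plus strand): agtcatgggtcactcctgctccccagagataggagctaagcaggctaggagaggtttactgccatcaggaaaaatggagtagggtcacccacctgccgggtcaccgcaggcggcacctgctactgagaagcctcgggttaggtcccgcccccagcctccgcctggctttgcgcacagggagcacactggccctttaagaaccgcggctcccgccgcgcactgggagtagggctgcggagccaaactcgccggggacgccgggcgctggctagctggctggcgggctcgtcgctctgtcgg

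Mmp14 was the most abundant Mmp gene in these libraries, at 29.4, 33.2 and 36.9 FPKM in the control libraries and 32.8, 46.6 and 51.6 FPKM in the libraries labelled ECKO (log2 fold change of 0.37 with an SE of 0.16 and an adjusted p of 0.266). Replicate 1 labelled ECKO lay within the control range. Mmp2 was at 2.98, 3.35 and 3.46 FPKM in the control libraries and 5.29, 5.35 and 5.16 FPKM in the libraries labelled ECKO, which leaves the groups apart, but with an adjusted p of 0.0588 (log2 fold change 0.56, SE 0.12). Mmp8 was at 14.2, 13.3 and 21.7 FPKM in the control libraries and 27.1, 11.6 and 10.05 FPKM in the libraries labelled ECKO and Mmp9 at 8.75, 10.7 and 10.8 FPKM in the control libraries and 17.1, 8.31 and 10.9 FPKM in the libraries labelled ECKO. For both, replicate 1 labelled ECKO was the highest of the 6 libraries and the groups overlapped (adjusted p = 0.895 and 0.676). The same library had the highest sum of the 10 neutrophil markers, 3933 FPKM, with 1699 to 1792 FPKM in the other libraries labelled ECKO and 2149 to 2794 FPKM in controls, and the part of neutrophils in these values was not tested. Mmp13 had means of 2.39 FPKM in controls and 2.15 FPKM in libraries labelled ECKO. Mmp11, Mmp19, Mmp25, Mmp27 and Mmp28 had group means between 0.938 and 2.58 FPKM, and none was called.

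Timp4 was at 1.34, 2.46 and 2.40 FPKM in the control libraries and 0.756, 0.362 and 0.249 FPKM in the libraries labelled ECKO, with 8 to 100 recovered reads per library. All libraries labelled ECKO were below all controls (log2 fold change of -1.07 with an SE of 0.22 and an adjusted p of 0.0484). The call held in 6 of 16 alternative fits and was lost without control 2, control 3, ECKO 2 or ECKO 3 (adjusted p 0.123 to 0.218), and Timp4 reached the filter through the control libraries alone. Timp2 was at 24.3, 23.2 and 25.9 FPKM in the control libraries and 26.3, 30.1 and 28.0 FPKM in the libraries labelled ECKO and Timp3 at 17.2, 21.5 and 20.4 FPKM in the control libraries and 22.9, 24.0 and 25.2 FPKM in the libraries labelled ECKO. In both, the libraries labelled ECKO were slightly above the controls without overlap, and neither passed the test (adjusted p = 0.332 and 0.215). Timp1 was at 2.85, 1.80 and 3.27 FPKM in the control libraries and 2.65, 4.43 and 2.77 FPKM in the libraries labelled ECKO, with overlapping groups (adjusted p = 0.599).

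All 8 Adamts genes tested had a positive fold change, and none was called. Adamts1 was at 31.1, 33.6 and 22.7 FPKM in the control libraries and 40.9, 73.8 and 76.2 FPKM in the libraries labelled ECKO (log2 fold change of 1.07 with an SE of 0.23 and an adjusted p of 0.0589). Adamts5 was at 26.8, 25.8 and 26.6 FPKM in the control libraries and 29.5, 38.3 and 36.5 FPKM in the libraries labelled ECKO (log2 fold change of 0.38 with an SE of 0.11 and an adjusted p of 0.123). Replicate 1 labelled ECKO was the lowest of its group for both genes. Adamts9, another proteoglycanase, had means of 3.31 ± 0.231 FPKM in controls and 4.86 ± 0.134 FPKM in libraries labelled ECKO (log2 fold change of 0.45 with an SE of 0.12 and an adjusted p of 0.0915), while genes on the other strand overlap 12.0% of its exons. Adamts4 was at 4.95, 4.32 and 3.53 FPKM in the control libraries and 4.41, 8.29 and 8.27 FPKM in the libraries labelled ECKO (log2 fold change of 0.57 with an SE of 0.21 and an adjusted p of 0.196). Adamts10 was at 9.27, 9.86 and 8.44 FPKM in the control libraries and 14.6, 9.28 and 9.78 FPKM in the libraries labelled ECKO, where replicate 1 labelled ECKO was the highest library and the groups overlapped. Adamts6, Adamts7, Adamts12 and Adamtsl2 had group means between 1.20 and 2.75 FPKM. Without replicate 1 labelled ECKO, 6 members were called, with Adamts1 (adjusted p = 0.00744), Adamts5 (0.0395), Adamts4 (0.0307) and Mmp14 (0.0498) joining Mmp15 and Timp4, while 2.59% of all genes were called in that fit. Without control 3, ECKO 2 or ECKO 3 none was called, while 8, 6 and 6 members were at an unadjusted p under 0.05, and 1 was called without control 2. Of all genes, 1 was called without ECKO 2 or ECKO 3, 14 without control 3 (0.124%) and 20 without control 2 (0.177%).

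The summed endothelial markers were 613 to 640.4 FPKM in the controls and 791 to 918 FPKM in the libraries labelled ECKO, with 1 of 10 called as higher. The osteoblast markers summed to 33.3 to 45.9 FPKM and 11.1 to 24.8 FPKM, with 3 of 6 tested called as lower. The B cell markers summed to 255 to 308 FPKM and 213 to 218 FPKM. The part of these markers in the members' values was not tested. Of the 41 genes that act with the proteases, 26 were tested and 2 were called, both as higher in libraries labelled ECKO (0.883% of all genes). Plaur was at 63.2, 67.2 and 47.3 FPKM in the control libraries and 90.5, 127 and 129 FPKM in the libraries labelled ECKO (log2 fold change of 0.95 with an SE of 0.17 and an adjusted p of 0.0387). Tfpi2 was at 5.15, 7.54 and 7.89 FPKM in the control libraries and 11.8, 16.4 and 14.5 FPKM in the libraries labelled ECKO (log2 fold change of 0.96 with an SE of 0.17 and an adjusted p of 0.0387). Neither was called without control 2, control 3, ECKO 2 or ECKO 3 (adjusted p 0.0752 to 0.197 for Plaur and 0.0715 to 0.197 for Tfpi2), nor with no filter or no trend, and Plaur was not called with the replicate block (0.0592).

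Lats2 is the kinase that restrains Yap1 and Taz, and its cKO libraries were compared with their controls to describe the family when it was targeted. Adamts5 and Timp3, which were the most abundant members in bmECs, were both far lower in the cKO libraries. Mmp8, Mmp17 and Mmp19 were lower as well, and Timp1, Adamts7 and Mmp28 were higher. Of 25 members tested, 8 were called, 3 as higher and 5 as lower. Over all 12453 genes tested, 21.8% were called, 11.8% as higher and 9.98% as lower. Groups did not overlap for 17 of the 25 members, with 68.2% of all genes tested. The median log2 fold change was -0.011 over the members and -0.0033 over all genes tested. With 2 libraries in each group, every call of a member rested on both controls: without control 1 or control 2, no member and no gene at all was called by limma, while 8 and 11 members, and 2724 and 2879 genes, were at an unadjusted p under 0.05. In those fits the lone control was assumed to vary like the cKO libraries. Without cKO replicate 2, 3 members and 7.53% of all genes were called. With no filter 3 members and 7.01% of all genes were called, and the calls of Adamts7, Mmp8, Mmp17, Mmp19 and Mmp28 were lost.

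**Figure D3:**
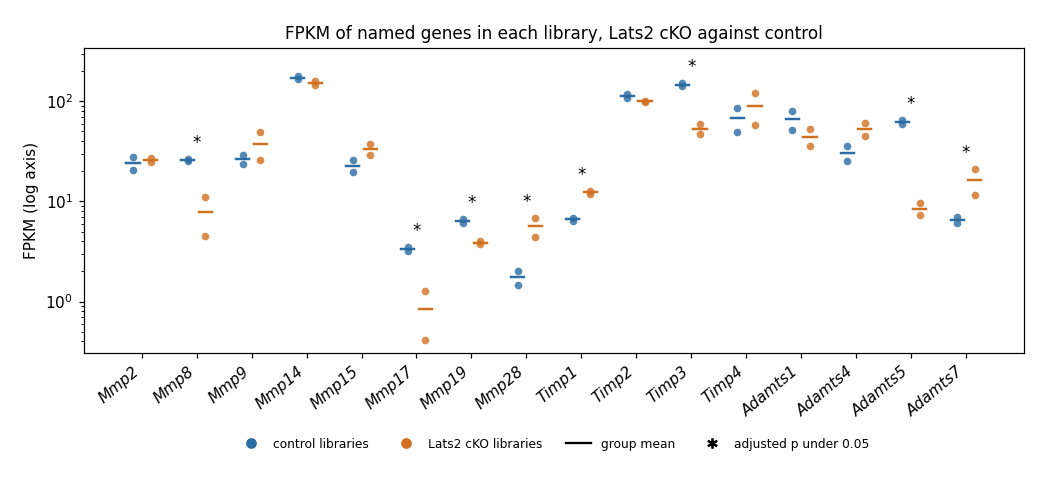
FPKM on a log axis of 16 genes in each of the 2 control (blue) and 2 Lats2 cKO (orange) libraries. Points are libraries, bars are group means and asterisks mark an adjusted p under 0.05 (limma). Adamts5 drops from 64.3 and 58.8 FPKM to 9.66 and 7.32 FPKM and Timp3 from 142 and 151 FPKM to 59.0 and 47.1 FPKM, while Mmp14 and Timp2 stay close to their control levels.

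Adamts5 was at 64.3 and 58.8 FPKM in the control libraries and 9.66 and 7.32 FPKM in the cKO libraries. Its mean FPKM in controls was 7.25 times that in cKO libraries (log2 fold change of -2.73 with an SE of 0.16 and an adjusted p of 0.00573), and its share of the summed ADAMTS FPKM was 40.1 and 30.0% in the controls and 7.34 and 5.40% in the cKO libraries. The adjusted p was 0.110 to 0.129 without control 1 or control 2. Adamts1, its neighbour, was at 52.0 and 80.4 FPKM in the control libraries and 52.4 and 35.5 FPKM in the cKO libraries, with overlapping groups and no call (log2 fold change of -0.57 with an SE of 0.28 and an adjusted p of 0.193). Adamts4 was at 25.3 and 35.6 FPKM in the control libraries and 44.8 and 61.0 FPKM in the cKO libraries, higher in both cKO libraries than in both controls, but with an adjusted p of 0.0651 (log2 fold change 0.78, SE 0.23). These 3 proteoglycanases thus had fold changes of both signs, and only that of Adamts5 was called. Adamts7 was at 6.02 and 6.99 FPKM in the control libraries and 11.6 and 21.0 FPKM in the cKO libraries and was called as higher (log2 fold change of 1.16 with an SE of 0.28 and an adjusted p of 0.0425), which did not hold without control 1, control 2 or cKO 2 (adjusted p 0.0771 to 0.239). Adamts10 was at 7.81 and 8.63 FPKM in the control libraries and 6.17 and 3.94 FPKM in the cKO libraries (log2 fold change of -0.63 with an SE of 0.22 and an adjusted p of 0.0963). Adamts9, Adamts12, Adamts17 and Adamtsl2 had group means between 1.04 and 2.96 FPKM and were not called.

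Timp3 was at 142 and 151 FPKM in the control libraries and 59.0 and 47.1 FPKM in the cKO libraries. Both cKO values were under every control value (log2 fold change of -1.46 with an SE of 0.15 and an adjusted p of 0.00912), with an adjusted p of 0.113 to 0.130 without control 1 or control 2. Timp3 was 45.0 and 42.9% of the summed TIMP FPKM in controls and 25.7 and 16.8% in cKO libraries. Timp1 moved the other way, at 6.79 and 6.44 FPKM in the control libraries and 11.9 and 12.7 FPKM in the cKO libraries (log2 fold change of 0.80 with an SE of 0.13 and an adjusted p of 0.0173), from 30 to 56 recovered reads per library. This call was lost in the fit on recovered reads and without control 1, control 2 or cKO 2 (adjusted p 0.0628 to 0.157). Timp2 was at 117 and 108 FPKM in the control libraries and 101 and 98.7 FPKM in the cKO libraries (log2 fold change of -0.17 with an SE of 0.12 and an adjusted p of 0.331). Timp4 was abundant here, at 49.4 and 86.3 FPKM in the control libraries and 57.4 and 122 FPKM in the cKO libraries, and the groups overlapped (adjusted p = 0.577).

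Mmp14 was the most abundant Mmp gene, at 178 and 167 FPKM in the control libraries and 161 and 147 FPKM in the cKO libraries, and the cKO libraries were slightly lower without a call (log2 fold change of -0.16 with an SE of 0.12 and an adjusted p of 0.370). Mmp2 was at 27.9 and 20.6 FPKM in the control libraries and 25.03 and 26.8 FPKM in the cKO libraries, with overlapping groups (log2 fold change of 0.11 with an SE of 0.17 and an adjusted p of 0.687). Mmp9 was at 29.2 and 23.6 FPKM in the control libraries and 49.3 and 26.1 FPKM in the cKO libraries, with the highest value in cKO replicate 1 and the groups again overlapping (adjusted p = 0.350). Mmp15 was at 19.7 and 25.9 FPKM in the control libraries and 37.0 and 29.0 FPKM in the cKO libraries, higher in both cKO libraries but not called (log2 fold change of 0.52 with an SE of 0.19 and an adjusted p of 0.113). Mmp13 varied most, at 3.46 and 0.566 FPKM in the control libraries and 19.2 and 4.51 FPKM in the cKO libraries (log2 fold change of 2.00 with an SE of 0.76 and an adjusted p of 0.118).

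Among the called Mmp genes, Mmp8 was at 26.3 and 25.2 FPKM in the control libraries and 11.1 and 4.50 FPKM in the cKO libraries (log2 fold change of -1.71 with an SE of 0.37 and an adjusted p of 0.0322). Its adjusted p was 0.192 to 0.200 without control 1 or control 2. The 10 neutrophil markers were lower too, with sums of 1974 to 2940.2 FPKM in controls and 719.5 to 863 FPKM in cKO libraries, and 7 of 10 called as lower, and their part in the Mmp8 value was not tested. Mmp25 was at 6.79 and 5.58 FPKM in the control libraries and 3.77 and 2.32 FPKM in the cKO libraries and was not called (adjusted p = 0.0560). Mmp17, anchored in the membrane by a lipid, was at 3.20 and 3.48 FPKM in the control libraries and 1.27 and 0.411 FPKM in the cKO libraries (log2 fold change of -1.28 with an SE of 0.29 and an adjusted p of 0.0360), with the call lost without control 1, control 2 or cKO 2 (adjusted p 0.0692 to 0.211). It reached the filter through the control libraries alone. Mmp19, a secreted MMP found in many tissues, was at 6.60 and 6.06 FPKM in the control libraries and 4.04 and 3.71 FPKM in the cKO libraries (log2 fold change of -0.59 with an SE of 0.15 and an adjusted p of 0.0475). That call was lost when any 1 of the 4 libraries was left out (adjusted p 0.0704 to 0.282), while genes on the other strand overlap 28.3% of its exons. Mmp28, another secreted MMP, was at 2.02 and 1.48 FPKM in the control libraries and 4.45 and 6.79 FPKM in the cKO libraries (log2 fold change of 1.25 with an SE of 0.24 and an adjusted p of 0.0257), with the call lost without control 1, control 2 or cKO 2 (adjusted p 0.0830 to 0.179). The gene 1700020L24Rik overlaps 12.0% of its exon bases on the other strand. Mmp11 and Mmp24 had group means between 2.16 and 3.33 FPKM, without a call.

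Marker sums of other cell types also differed between the Lats2 groups. In this fit 9.98% of all genes were called as lower and 11.8% as higher. The macrophage, erythroid and megakaryocyte lists each had only 1 or 2 markers called as lower. The 6 B cell markers summed to 89.0 to 102 FPKM in controls and 20.8 to 28.0 FPKM in cKO libraries, with 6 of 6 called as lower. The macrophage and monocyte markers summed to 572 to 688 and 84.4 to 325 FPKM (2 of 8 tested called as lower), the erythroid markers to 2068 to 3228 and 210.2 to 1252 FPKM (1 of 6 lower) and the megakaryocyte markers to 29.7 to 110.1 and 9.45 to 12.1 FPKM (1 of 5 lower). The part of these blood cell genes in the lower Mmp8, Mmp17, Mmp19 and Mmp25 values was not tested. Higher in the cKO libraries were the osteoclast markers, with sums of 5.04 to 5.36 and 7.43 to 8.48 FPKM (1 of 2 tested called), and the stromal ones. The 11 stromal and pericyte markers summed to 57.8 to 68.5 FPKM in controls and 110.5 to 113 FPKM in cKO libraries, with 4 of 8 tested called as higher. The part of these markers in the Timp1, Adamts7 and Mmp28 values was not tested. The endothelial markers summed to 2650.4 to 2918 FPKM and 2423 to 2607 FPKM. Of the 27 tested genes that act with the proteases, 6 were higher and 1 was lower in cKO libraries, against 11.8% and 9.98% of all genes. Plat was at 17.9 and 17.2 FPKM in the control libraries and 40.7 and 38.7 FPKM in the cKO libraries (log2 fold change of 1.14 with an SE of 0.11 and an adjusted p of 0.00910). Cav1, a membrane protein of caveolae to which proteases can dock, was at 181 and 297 FPKM in the control libraries and 932 and 1009 FPKM in the cKO libraries (log2 fold change of 2.06 with an SE of 0.25 and an adjusted p of 0.0113). Thbs1, the matrix protein thrombospondin, was at 9.53 and 21.8 FPKM in the control libraries and 138 and 204 FPKM in the cKO libraries (log2 fold change of 3.44 with an SE of 0.40 and an adjusted p of 0.0105), and Vwf, the von Willebrand factor cut by Adamts13, at 1.86 and 5.86 FPKM in the control libraries and 16.9 and 24.0 FPKM in the cKO libraries (log2 fold change of 2.25 with an SE of 0.43 and an adjusted p of 0.0252). Adam9 was the lower gene, at 73.4 and 67.2 FPKM in the control libraries and 28.9 and 20.5 FPKM in the cKO libraries (log2 fold change of -1.49 with an SE of 0.19 and an adjusted p of 0.0115). Like the members, these 5 genes were not called without control 1 or control 2, and without cKO 2 the calls of Cav1, Thbs1 and Vwf were lost (adjusted p 0.0595, 0.0578 and 0.128). Vwf was not called without cKO 1 either (0.0734).

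**Figure D4:**
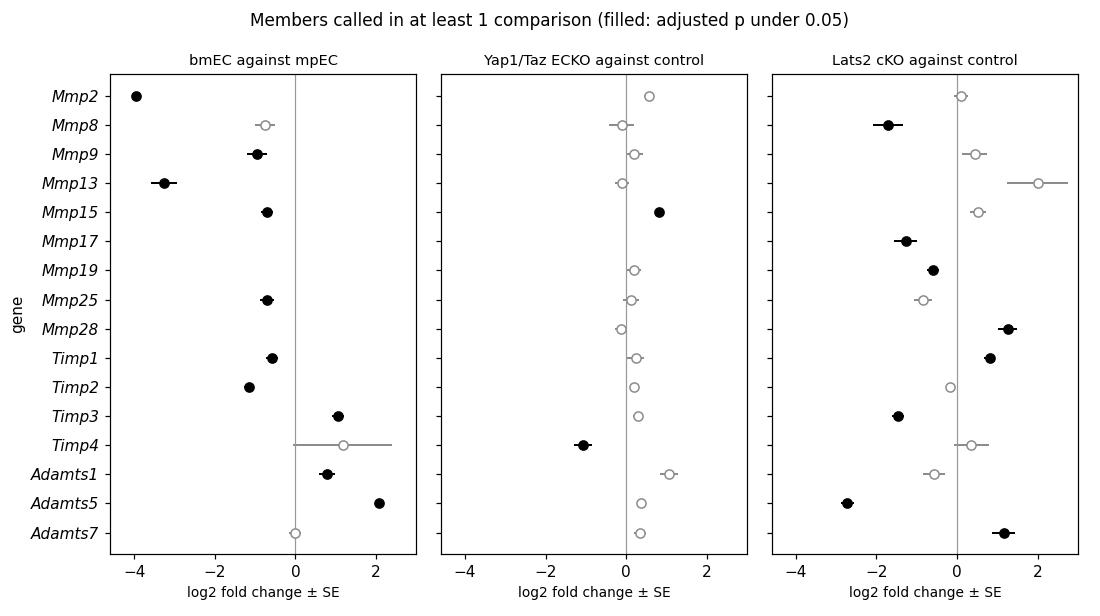
Log2 fold changes with their SE for the 16 genes called in at least 1 comparison, on the log2(FPKM + 1) scale, in bmECs against mpECs (left), libraries labelled ECKO against control (middle) and Lats2 cKO against control (right). Filled points passed an adjusted p under 0.05 (limma), open points did not, and no point is drawn where a gene was under the filter. Adamts5 and Timp3 lie to the right of 0 in the left panel (2.07 and 1.05) and to the left of it in the right panel (-2.73 and -1.46).

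The comparisons share no libraries, and their fold changes for the same member can be set side by side. Adamts5 had log2 fold changes of 2.07 in bmECs against mpECs, 0.38 in libraries labelled ECKO and -2.73 in Lats2 cKO. Timp3 had 1.05, 0.28 and -1.46, in the same order. For both genes the first and last values passed the test and the middle one did not. Timp1 was called in the opposite way to Timp3 in both, at -0.57 in bmECs and 0.80 in Lats2 cKO. Mmp15, called as higher at 0.82 in libraries labelled ECKO, had -0.71 in bmECs and 0.52 in Lats2 cKO, and only the bmEC value of these was called. Adamts1 had 0.79, 1.07 and -0.57, called in bmECs alone. No test of the difference between comparisons was made. Among the partner genes, Adam9 was called as higher in bmECs (0.88) and lower in Lats2 cKO (-1.49), and Plat as lower in bmECs (-3.25) and higher in Lats2 cKO (1.14).

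Summed over each family, the MMP genes were at 174 to 262 FPKM in mpECs and 96.1 to 106 FPKM in bmECs, the TIMP genes at 98.0 to 119.8 and 160.2 to 246 FPKM, and the ADAMTS genes at 68.1 to 97.1 and 245 to 267 FPKM. None of these ranges overlapped between mpECs and bmECs, and Mmp8, the collagenase of neutrophils, was the largest part of the MMP sums there. In the Yap1/Taz libraries the MMP sums were 72.9 to 89.8 FPKM in controls and 96.4 to 108 FPKM in libraries labelled ECKO, and the ADAMTS sums 70.8 to 85.3 and 104 to 145 FPKM. In the Lats2 libraries the MMP sums overlapped, the TIMP sums were 315 to 351 FPKM in controls and 229 to 281 FPKM in cKO libraries, and the ADAMTS sums 161 to 196 and 132 to 136 FPKM.

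**Figure D5:**
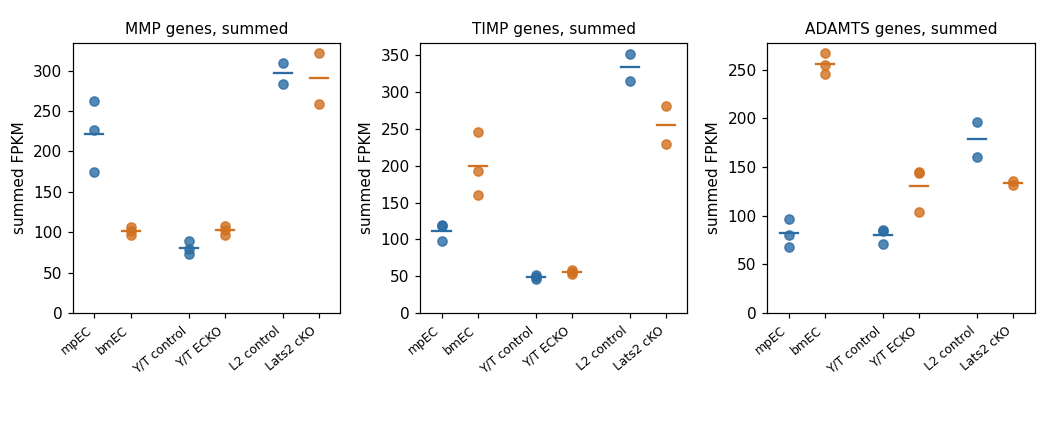
Summed FPKM of the 23 MMP, 4 TIMP and 19 ADAMTS genes in each library, with reference groups in blue and the other group of each comparison in orange (Y/T, Yap1/Taz libraries, whose MMP sum has 22 genes; L2, Lats2 libraries). Points are libraries and bars are group means; levels can be compared within a pair of groups only. The ADAMTS sum is 245 to 267 FPKM in bmECs and 68.1 to 97.1 FPKM in mpECs.

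The remaining members averaged under 1 FPKM and were not tested in the main fits. In the mpEC and bmEC libraries 35 members were under the filter, and Adamts19, Adamts20, Mmp1a, Mmp1b, Mmp7 and Mmp20 were listed at 0 in all 6 libraries. The highest single values among the others were those of Adamtsl2 (2.09 FPKM), Mmp19 (1.35 FPKM), Adamts9 (1.17 FPKM), Mmp23 (1.11 FPKM), Mmp11 (0.850 FPKM), Adamts12 (0.814 FPKM), Mmp28 (0.797 FPKM), Adamts3 (0.492 FPKM), Adamts17 (0.471 FPKM) and Adamtsl1 (0.426 FPKM). The rest stayed at or below 0.411 FPKM in every library, namely Adamts13, Adamts14, Adamts15, Adamts16, Adamts18, Adamts2, Adamts6, Adamts8, Adamtsl3, Adamtsl4, Adamtsl5, Mmp10, Mmp12, Mmp16, Mmp17, Mmp21, Mmp24, Mmp27 and Mmp3.

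In the Yap1/Taz libraries 26 members were under it, and Adamts8, Adamts19, Mmp1b, Mmp7, Mmp10 and Mmp20 were listed at 0. Their highest values were reached by Mmp17 (1.52 FPKM), Adamts3 (1.32 FPKM), Adamts17 (1.12 FPKM), Adamtsl4 (1.00 FPKM), Adamtsl5 (0.499 FPKM), Mmp23 (0.450 FPKM), Mmp12 (0.444 FPKM), Adamts2 (0.436 FPKM) and Adamts14 (0.365 FPKM). At most 0.238 FPKM was found for Adamts13, Adamts15, Adamts16, Adamts18, Adamts20, Adamtsl1, Adamtsl3, Mmp16, Mmp21, Mmp24 and Mmp3. In the Lats2 libraries 26 were under it as well, with Adamts19, Mmp1a, Mmp1b, Mmp7 and Mmp20 listed at 0. The leading values there belonged to Adamts2 (1.38 FPKM), Adamtsl4 (0.718 FPKM), Adamtsl1 (0.585 FPKM), Adamts18 (0.517 FPKM), Mmp23 (0.515 FPKM) and Mmp12 (0.403 FPKM), and Adamts13, Adamts14, Adamts15, Adamts16, Adamts20, Adamts3, Adamts6, Adamts8, Adamtsl3, Adamtsl5, Mmp10, Mmp16, Mmp21, Mmp27 and Mmp3 did not exceed 0.292 FPKM. The procollagen N-proteinases Adamts2, Adamts3 and Adamts14 and the von Willebrand factor protease Adamts13 thus reached the filter in no comparison, nor did the stromelysins Mmp3 and Mmp10 or Mmp12, the metalloelastase of macrophages.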

How the data were processed

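RNA-seq was performed on sorted bone ECs, giving 16 libraries in 3 comparisons of 3 against 3, 3 against 3 and 2 against 2 libraries. Before deposit, the authors used TopHat to align the reads of stranded total RNA libraries with GRCm38, took counts by gene from HTSeq (version 0.6.1, per the labels), and deposited FPKM values. The step from counts to FPKM and the strand setting are not given in the sources used here. DESeq2, which the submitters' notes also name, was used by the authors on counts not analysed here.

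From the FPKM, log2(FPKM + 1) was computed, so fold changes of low genes are understated. A gene entered the test of a comparison if it averaged 1 FPKM or more there. Tests used limma (3.58.1, in R 4.3.3) with a group term and a mean-variance trend. The p-values are two-sided, adjusted by the Benjamini-Hochberg method over all genes tested, and called under 0.05. Whole reads were recovered from the steps of the low values, of which 62.7 to 70.2% lay within 0.02 reads of a whole number in the 16 libraries (4% by chance), and every value column belonged to a sample. Symbols were given to 98.9% of the IDs in the Yap1/Taz lists. The procedure was tested on simulated data. Values in every library are given for members called in a comparison or with a mean of at least 10 FPKM in one, where they passed the filter. Members, partner genes and marker lists were chosen with earlier results of these data known. Coordinates are from GENCODE M21 of GRCm38. Alternatives were the pseudocount (0.1 and 0.5), the filter (0.1, 5 or none), quantile normalization, a median shift, no trend, a robust fit, limma-voom on recovered reads, a stricter threshold, a replicate block and the removal of each library. Protein sequences were not analysed here.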

Additional observations from a re-analysis of the deposited data

How the results depend on the processing

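The number of members called was 10 for bmECs against mpECs, 2 for libraries labelled ECKO against control and 8 for Lats2 cKO against control. With calls limited to an adjusted p under 0.01 and a fold change beyond 0.5 on the log2 scale it was 5, 0 and 2 (11.7%, 0.00883% and 2.06% of all genes). For the libraries labelled ECKO it was 1 with a pseudocount of 0.1 or 0.5 or a filter of 0.1 FPKM (1.14%, 1.28% and 0.584% of all genes), 0 with no filter or no trend (1 and 17 genes of all, limma, with 9 members at an unadjusted p under 0.05 in both) and 4 with voom on recovered reads (3.16%). For Lats2 cKO it was 4 with a filter of 0.1 FPKM (11.8%) and 3 with no filter (7.01%). Leaving out 1 library at a time gave 7 to 9 members for bmECs, 0 to 6 for libraries labelled ECKO and 0 to 9 for Lats2 cKO, with 15.9 to 20.7%, 0.00884 to 2.59% and 0 to 21.6% of all genes. With the replicate block the counts were 11, 1 and 10 members and 26.9%, 0.398% and 21.3% of all genes. The deviations of same-numbered libraries correlated at 0.307, 0.0880 and 0.102 in mpECs and bmECs, where differently numbered pairs gave -0.206 to 0.115. In the Yap1/Taz libraries they correlated at -0.175, -0.123 and -0.155, with -0.154 to 0.235 for differently numbered pairs. In the Lats2 libraries the value was 0.0650, which 2 libraries per group force to be the same for both pairs. The labels give no pairing, so the main fits used none. Whether mpEC and bmEC libraries of the same number came from the same mice is not stated. Of the 424 fold changes of single named members under the alternatives that keep all libraries, 388 kept their direction and their side of the threshold, 27 lost the call, 8 gained one and 1 changed sign, Mmp2 in Lats2 cKO at -0.019 with voom on recovered reads. With libraries left out, sign changes occurred for members that were not called: the log2 fold change ranged over -0.40 to 2.01 for Timp4 in bmECs, -0.53 to 0.15 for Mmp8 and -0.064 to 0.42 for Mmp9 in libraries labelled ECKO, and -0.10 to 0.32 for Mmp2, -0.0091 to 0.88 for Mmp9 and -0.18 to 0.90 for Timp4 in Lats2 cKO. The cause of these changes was not tested. Members averaging under 1 FPKM, 35, 26 and 26 in the 3 comparisons, were not tested in the main fits. With a filter of 0.1 FPKM, 33 members were tested in bmECs against mpECs. Of these, 13 were called (limma), 3 as higher and 10 as lower, with 16.3% of all genes called. With no filter it was 9 of 45 members, 2 as higher and 7 as lower, with 11.2% of all genes.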
